A study of Homo sapiens with 6 samples.

Results

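The epithelial keratins and junction genes examined here were KRT7, KRT8, KRT18 and KRT19 among the keratins, CDH1, EPCAM, JUP and DSP at adhesive junctions, and CLDN1 and OCLN at tight junctions. They were chosen by gene symbol in the platform annotation, which gave 18 of the 47323 probes of the array and 10 of the 20046 named genes. The arrays were Illumina HumanHT-12 v4 BeadChips hybridised with total RNA of NCI-H460, an established human line of non-small cell lung cancer. There were 6 groups with 1 array each: CSC-rich cells given PNAs-A15, CSC-rich cells given a scramble control, untreated CSC-rich cells, and parental wild type cells given PNAs-A15, the scramble control or nothing. The CSC-rich population, described by the submitters as rich in cancer stem cells, was propagated from the parental line as spheroids, so both populations derive from 1 line. All cells were kept in RPMI medium, with 10% fetal bovine serum for the parental culture alone, so that medium and population cannot be told apart. Exposure to PNAs-A15 or to the scramble control lasted 6 h. The sources used here give only the code name PNAs-A15 for the agent. For CSC-rich cells the label shortens it to PNA, read here as the same agent.

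Keratins are the intermediate filaments of epithelial cells and assemble as pairs of a type I and a type II chain. In simple epithelia, including much of the lung, KRT8 and KRT7 are the type II chains and KRT18 and KRT19 the type I chains. The filaments are anchored at desmosomes, where desmoplakin (DSP) ties them to the plaque protein plakoglobin (JUP), which also serves at adherens junctions beside E-cadherin (CDH1). EPCAM is a surface adhesion protein of epithelial cells, and claudin-1 (CLDN1) and occludin (OCLN) span the membrane at tight junctions.

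A probe was taken as detected where its detection p, its rank among the negative controls of the same array, was under 0.05. By that measure 36.5% to 42.8% of the probes were detected per array. The shares were lowest on the parental PNAs-A15 array, at 36.5%, and the CSC-rich scramble array, at 38.5%. The parental PNAs-A15 array also stood apart in its correlation with the others across genes, at a Pearson r of 0.828 to 0.872, while the other 5 arrays reached 0.912 to 0.992 among themselves. With 1 array per group, no group has a spread of its own, and differences between 2 arrays are descriptions without a test. Nothing in the labels says that the arrays came from separate cultures, so the p-values below measure only the spread between these 6 arrays.

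Part of the 10 genes was measured, at a share not above that of all named genes. The count is therefore not read as a result on epithelial identity. A probe detected on at least 2 arrays was found for 5 of the 10 genes, against 60.4% of all named genes: the keratins KRT8 and KRT19, the desmosomal JUP and DSP, and CLDN1. The other 5, KRT7, KRT18, CDH1, EPCAM and OCLN, had none. CDH1, whose product holds epithelial cells together, lay within the negative controls throughout, at detection p-values of 0.795 to 0.874 and signals of 93.7 to 106 on its 1 probe. Both OCLN probes were also dim, with detection p-values of 0.683 to 0.997 and signals of 80.5 to 118. No array detected any of the 3 EPCAM probes, at detection p-values of 0.061 to 0.762 and signals of 104 to 154.

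KRT18, the usual partner of KRT8 and its neighbour in the genome, was not detected by either of its 2 probes, at detection p-values of 0.061 to 0.671 and signals of 111 to 163. The single KRT7 probe was detected on the parental PNAs-A15 array alone, at 0.0312, and reached 0.462 elsewhere, with signals of 119 to 158. Low signal bounds the level but does not show that a transcript was absent. DSP was near that limit: of its 3 probes, 1 was detected, on the CSC-rich scramble, CSC-rich untreated and parental scramble arrays. KRT8, KRT19, CLDN1 and the brightest of 3 JUP probes were detected on all 6 arrays. KRT8, KRT18 and KRT19 have processed pseudogene copies in the human genome, and cross-hybridisation of their probes was not tested.

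**Figure D1:**
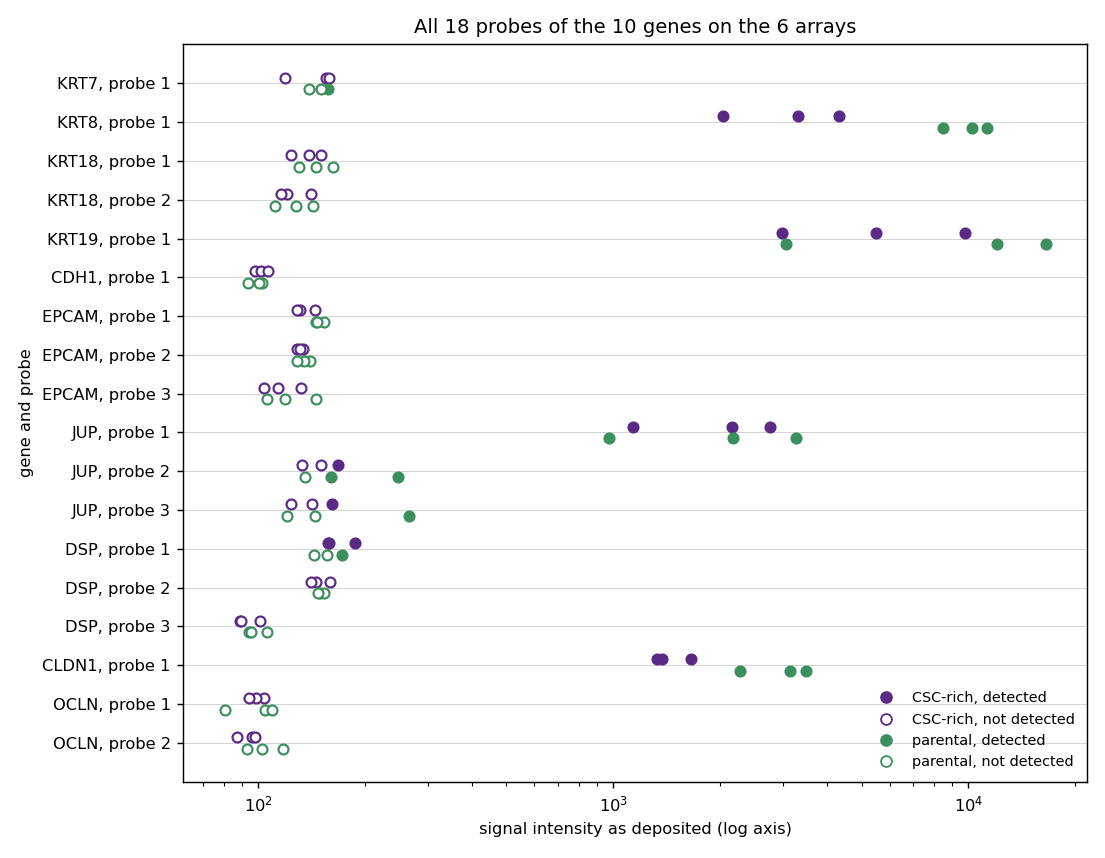
Deposited signal intensity (log axis) of the 18 probes of the 10 genes on each of the 6 arrays, with filled points where the detection p was under 0.05. The probes of KRT8, KRT19 and CLDN1 and 1 JUP probe lie at signals of 970 to 16571, and the remaining 14 probes lie between 80.5 and 267.

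The KRT8 probe had deposited signals of 4309, 2039 and 3302 in CSC-rich cells given PNAs-A15, scramble or nothing, against 11288, 10263 and 8462 in parental cells given the same. After background correction and quantile normalization these became log2 levels of 12.05, 11.03 and 11.59 in CSC-rich cells, against 13.59, 13.09 and 12.91 in parental cells. Every CSC-rich array was below every parental array. The brightest array of the parental set and the dimmest of the CSC-rich set were those with the lowest shares of detected probes, and the part of that in the levels was not tested.

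KRT19, the smallest keratin and a type I chain that lacks most of the tail domain, had log2 levels of 13.25, 11.60 and 12.36 in CSC-rich cells given PNAs-A15, scramble or nothing, against 11.87, 13.83 and 13.45 in parental cells. The ranges overlapped: the CSC-rich PNAs-A15 array was above the parental PNAs-A15 array, whereas the CSC-rich arrays with scramble or no agent were below their parental partners. In the deposited signals the same order was seen, at 9804, 2980 and 5476 in CSC-rich cells against 3066, 16571 and 12072 in parental cells. In each population the lowest KRT19 level came from the array with the fewest detected probes of that population. The part of this in the KRT19 levels was not tested.

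JUP, the plaque protein shared by desmosomes and adherens junctions, gave log2 levels of 11.39, 10.18 and 10.92 on its brightest probe in CSC-rich cells given PNAs-A15, scramble or nothing, against 10.37, 11.38 and 10.84 in parental cells. Within each population JUP had the same highest and lowest array as KRT19, and the untreated arrays of both populations were near each other. The other 2 JUP probes were detected on 3 and 2 arrays. They had log2 levels of 5.30 to 5.91 and 5.10 to 5.76 in CSC-rich cells, against 5.55 to 6.78 and 5.17 to 6.95 in parental cells, and on both the parental scramble array was the highest.

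CLDN1, a claudin that seals the space between neighbouring cells, had log2 levels of 10.21, 10.73 and 10.22 in CSC-rich cells given PNAs-A15, scramble or nothing, against 11.49, 11.32 and 11.57 in parental cells. Its CSC-rich arrays were all below its parental arrays, with a gap between the highest CSC-rich and the lowest parental array. DSP, which links keratin filaments to the desmosome, had log2 levels of 5.68, 5.97 and 6.20 in CSC-rich cells and 5.83, 5.77 and 5.62 in parental cells. These DSP levels overlapped and lay close to the lowest level of a detected probe on their arrays, which was 5.65 to 5.90 on CSC-rich and 5.65 to 6.05 on parental arrays.

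**Figure D2:**
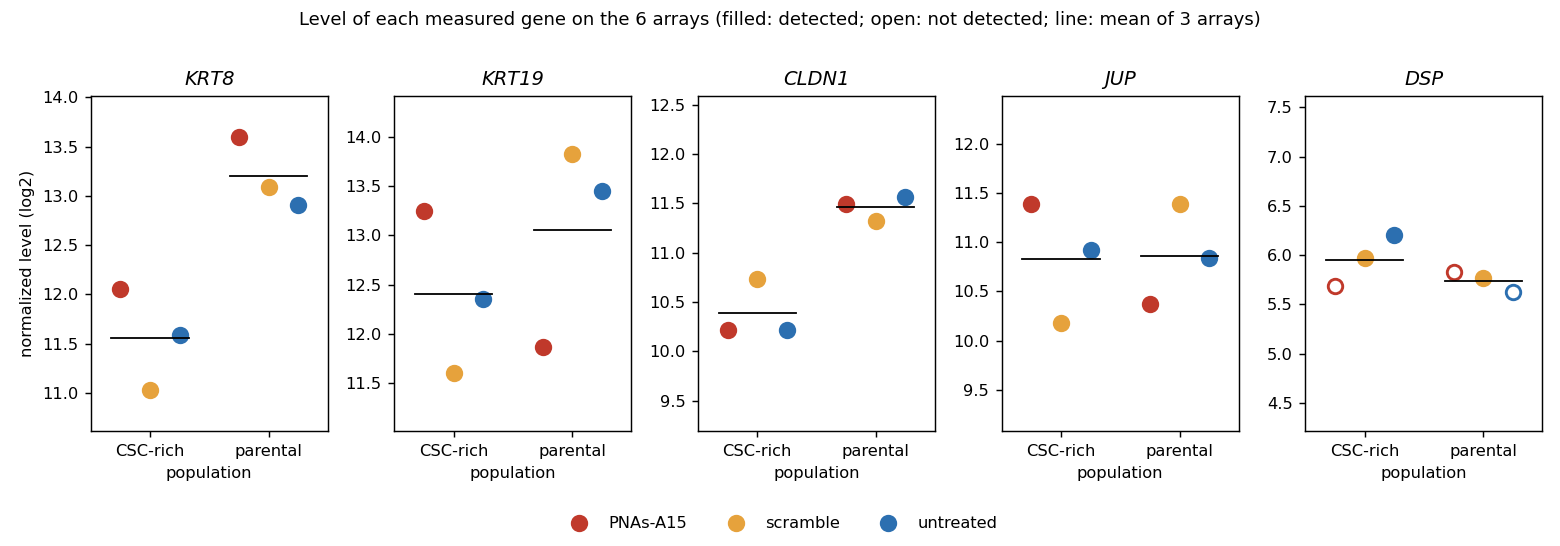
Normalized log2 level of the probe that stood for each of the 5 measured genes, on each array of the CSC-rich and the parental population, with open points where the probe was not detected and a line at the mean of the 3 arrays. KRT8 and CLDN1 are lower on every CSC-rich array than on every parental array, and KRT19, JUP and DSP overlap.

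RefSeq promoter windows of GRCh38.p14 were held for 5 of the 10 genes, JUP, DSP, CLDN1, OCLN and KRT8. Those of KRT8, CLDN1 and JUP, the 3 of these genes detected on all 6 arrays, are printed so that the sequence before the start can be read beside the levels. The 250 bases before the start were searched on both strands for an E-box bound by repressors of the SNAI and ZEB families (CAGGTG or CACCTG), a GC box (GGGCGG or CCGCCC), an AP-1 site (TGANTCA) and a TATA box (TATAAA). Among 35116 promoters of the same table, 17.5% held the E-box, 42.6% the GC box, 6.57% the AP-1 site and 10.7% the TATA box. The KRT8 window, chr12:52926470-52926719 on the minus strand, held none of these motifs. Whether the transcripts read by the probes begin at the starts shown here was not tested, so a window need not be the promoter behind a measured level. The CLDN1 window, chr3:190322447-190322696 on the minus strand, held 2 GC boxes, in capitals.
KRT8: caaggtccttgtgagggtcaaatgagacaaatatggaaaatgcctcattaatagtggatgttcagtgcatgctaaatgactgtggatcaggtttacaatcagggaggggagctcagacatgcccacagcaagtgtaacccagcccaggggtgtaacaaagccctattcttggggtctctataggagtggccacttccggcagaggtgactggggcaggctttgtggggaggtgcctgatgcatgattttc
CLDN1: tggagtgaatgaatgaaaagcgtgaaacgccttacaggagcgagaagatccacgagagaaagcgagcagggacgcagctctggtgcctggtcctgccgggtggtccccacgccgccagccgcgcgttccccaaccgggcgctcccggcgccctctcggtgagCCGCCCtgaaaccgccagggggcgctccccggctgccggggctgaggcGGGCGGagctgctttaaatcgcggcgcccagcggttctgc
JUP has 2 annotated starts. The window at chr17:41785977-41786226 on the minus strand held 2 E-boxes, which begin 54 and 43 bases before the start. That at chr17:41786712-41786961, on the same strand, held 2 GC boxes. Capitals mark both kinds. In the printed windows no matched motif overlapped another. The DSP window held 2 E-boxes and 7 GC boxes, some of them overlapping, and each of the 2 OCLN windows held 1 E-box, so the E-box was found for JUP, DSP and the undetected OCLN. A match describes letters only, not a bound site.
JUP first window: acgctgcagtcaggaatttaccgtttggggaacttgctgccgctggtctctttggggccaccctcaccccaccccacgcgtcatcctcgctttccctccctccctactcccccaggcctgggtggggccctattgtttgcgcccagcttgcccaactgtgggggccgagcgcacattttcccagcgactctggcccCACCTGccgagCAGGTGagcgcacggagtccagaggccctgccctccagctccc
JUP second window: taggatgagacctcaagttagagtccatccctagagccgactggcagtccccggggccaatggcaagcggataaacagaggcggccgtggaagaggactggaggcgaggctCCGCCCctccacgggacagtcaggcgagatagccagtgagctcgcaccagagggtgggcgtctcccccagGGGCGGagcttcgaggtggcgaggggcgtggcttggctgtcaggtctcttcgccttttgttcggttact

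The comparison of CSC-rich with parental cells asked whether the epithelial genes differ between the populations over the 3 treatments. KRT8 was 3.12-fold lower in CSC-rich cells and CLDN1 2.10-fold lower, but neither passed the threshold of an adjusted p under 0.05. The KRT8 log2 means were 11.56 ± 0.51 in CSC-rich cells and 13.20 ± 0.35 in parental cells (SD, n = 3 each). Its difference of -1.64 ± 0.34 (SE, 95% interval -2.44 to -0.84) had an unadjusted p of 0.0020 and an adjusted p of 0.066 in the limma fit of population and treatment. The CLDN1 log2 means were 10.39 ± 0.30 in CSC-rich and 11.46 ± 0.13 in parental cells (SD, n = 3 each). Here the difference of -1.07 ± 0.34 (95% interval -1.88 to -0.26) had an unadjusted p of 0.017 and an adjusted p of 0.17 in limma.

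KRT19 differed by -0.65 ± 0.66 (95% interval -2.22 to 0.92), with an adjusted p of 0.64 in limma. JUP differed by -0.03 ± 0.47 (95% interval -1.16 to 1.09), with an adjusted p of 0.98. For DSP the difference was 0.21 ± 0.34 (95% interval -0.59 to 1.01), with an adjusted p of 0.78. Each of these intervals holds differences of over 2-fold, so these 3 results do not show that the genes were alike. Thus 0 of the 5 measured genes passed the adjusted threshold, against 2.31% of all 12101 genes, and 2 of 5 had an unadjusted p under 0.05, against 18.9%. The median difference was -0.65 over the 5 genes and 0.01 over all genes. KRT8 and CLDN1 are also the 2 of 5 whose CSC-rich arrays all lay below the parental ones, as for 17.2% of all genes.

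These calls depended on which treatment pair was in the fit; leaving out 1 array gives the same value as leaving out its pair, since the treatment term absorbs the lone array. Without either of the PNAs-A15 arrays, KRT8 differed by -1.69 with an adjusted p of 0.0025 in limma and KRT19 by -1.66 with an adjusted p of 0.0042. Without either scramble array KRT8 was at -1.43 with an adjusted p of 0.33, and without either untreated array at -1.80 with an adjusted p of 0.19. The fit without PNAs-A15 called 2324 of the 12101 genes, against 279 with all arrays. Without either scramble array, the KRT19 difference was 0.14 and the JUP difference 0.55. JUP, DSP and CLDN1 passed in no fit that left out an array.

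In the 3 treatment pairs, KRT8 was lower in CSC-rich cells throughout, at -1.54 on the log2 scale with PNAs-A15 (-2.20 after median scaling), -2.06 with scramble and -1.32 without treatment. CLDN1 was lower in all of them too, at -1.28, -0.59 and -1.35. KRT19 was higher with PNAs-A15, at 1.38, and lower with scramble and without treatment, at -2.22 and -1.09. JUP was higher with PNAs-A15, at 1.02, lower with scramble, at -1.21, and near 0 without treatment, at 0.08, where the sign turned to -0.01 in the deposited signals. DSP was undetected on both arrays of the PNAs-A15 pair and has no difference there; it was at 0.21 with scramble, where the sign turned to -0.12 in the deposited signals, and at 0.58 without treatment. At least 2-fold differences were thus seen for 4 of 5 genes with PNAs-A15, against 38.6% of all genes, and, all of them lower in CSC-rich cells, for 3 of 5 with scramble, against 13.2% of all genes, and for 3 of 5 without treatment, against 5.91%. The count with PNAs-A15 depended on the processing. After median scaling KRT19 was at 0.92 and JUP at 0.83 in that pair, both under 2-fold. JUP was also under 2-fold with quantile normalization alone, at 0.96, and with the mean of kept probes, at 0.66. CLDN1 was at -0.77 there in the deposited signals. The untreated pair is the one without either array of low detection.

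**Figure D3:**
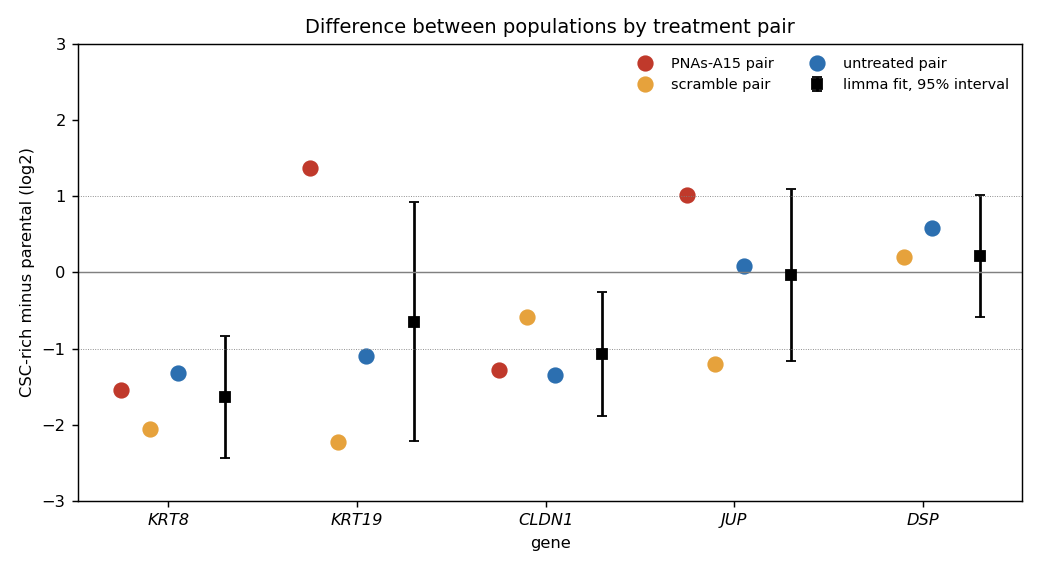
Log2 difference, CSC-rich minus parental, of the 5 measured genes within the PNAs-A15, scramble and untreated pairs of arrays, beside the limma estimate with its 95% interval. A pair with both arrays undetected is not drawn. KRT8 and CLDN1 are below 0 in every pair, and KRT19 and JUP lie on both sides of 0.

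The comparison of PNAs-A15 with scramble set the agent against its control. In CSC-rich cells KRT8, KRT19 and JUP were higher with PNAs-A15, at log2 differences of 1.02, 1.65 and 1.21, while DSP and CLDN1 were at -0.29 and -0.52. The higher-by-2-fold count was 3 of 5 genes, against 6.39% of all genes. It depended on the processing: KRT8 was under 2-fold after median scaling, at 0.81, and with quantile normalization alone, at 0.99. JUP was under 2-fold with the mean of kept probes, at 0.83. In parental cells KRT19 and JUP were lower with PNAs-A15, at -1.95 and -1.02, and KRT8 was at 0.50, DSP at 0.06 and CLDN1 at 0.17. Scaling moved several of these: KRT8 was at 1.15 after median scaling, JUP at -1.75 in the deposited signals, and DSP at 0.62 after median scaling and -0.26 in the deposited signals. The lower-by-2-fold count was 2 of 5, against 16.8% of all genes. In that parental pair JUP was under 2-fold after median scaling, at -0.84, and with quantile normalization alone, at -0.96. The parental CLDN1 value changed sign with the scaling, at 0.54 after median scaling and -0.46 in the deposited signals. The first pair includes the CSC-rich scramble array and the second the parental PNAs-A15 array, the ones with the lowest detection, and the part of this in the differences was not tested.

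Against untreated cells, the PNAs-A15 differences in CSC-rich cells did not reach 2-fold for any of the 5 genes, as against 0.496% of all genes: 0.47 for KRT8, 0.89 for KRT19, 0.47 for JUP, -0.52 for DSP and -0.01 for CLDN1. In parental cells KRT19 was lower by at least 2-fold, at -1.58, the only 1 of 5, against 17.2% of all genes. KRT8 was at 0.68 (1.30 after median scaling), JUP at -0.47 (-1.16 in the deposited signals) and CLDN1 at -0.08 (0.24 after median scaling). DSP was undetected on both of these parental arrays and has no difference there. These 2 comparisons share the PNAs-A15 arrays, so their values are given side by side and not as separate evidence.

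Scramble against untreated cells measures the control itself. In CSC-rich cells the log2 differences were -0.56 for KRT8, -0.76 for KRT19, -0.75 for JUP, -0.23 for DSP and 0.51 for CLDN1. In parental cells they were 0.18, 0.37, 0.55, 0.15 and -0.25 in the same order. None of the 5 genes was 2-fold apart in either population, against 3.77% of all genes in CSC-rich and 0.669% in parental cells. KRT19 and JUP with scramble were below untreated cells in the CSC-rich population and above them in the parental one.

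Over both populations, limma called 0 of the 5 genes in each of the treatment comparisons, and 0 of all 12101 genes, a share of 0%. At an unadjusted p under 0.05 the fit held 490 genes (4.05%) for PNAs-A15 against scramble, 450 (3.72%) for PNAs-A15 against untreated and 1 (0.00826%) for scramble against untreated, with 0 of the 5 genes in each. The lowest adjusted p among the 5 genes was 0.79, 0.75 and 1 in the same order, from limma. Their fitted differences for PNAs-A15 against scramble were 0.76 ± 0.41 for KRT8, -0.15 ± 0.81 for KRT19 and 0.10 ± 0.58 for JUP (SE). KRT19 and JUP had differences of opposite sign in the populations, which the additive fit averages.

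**Figure D4:**
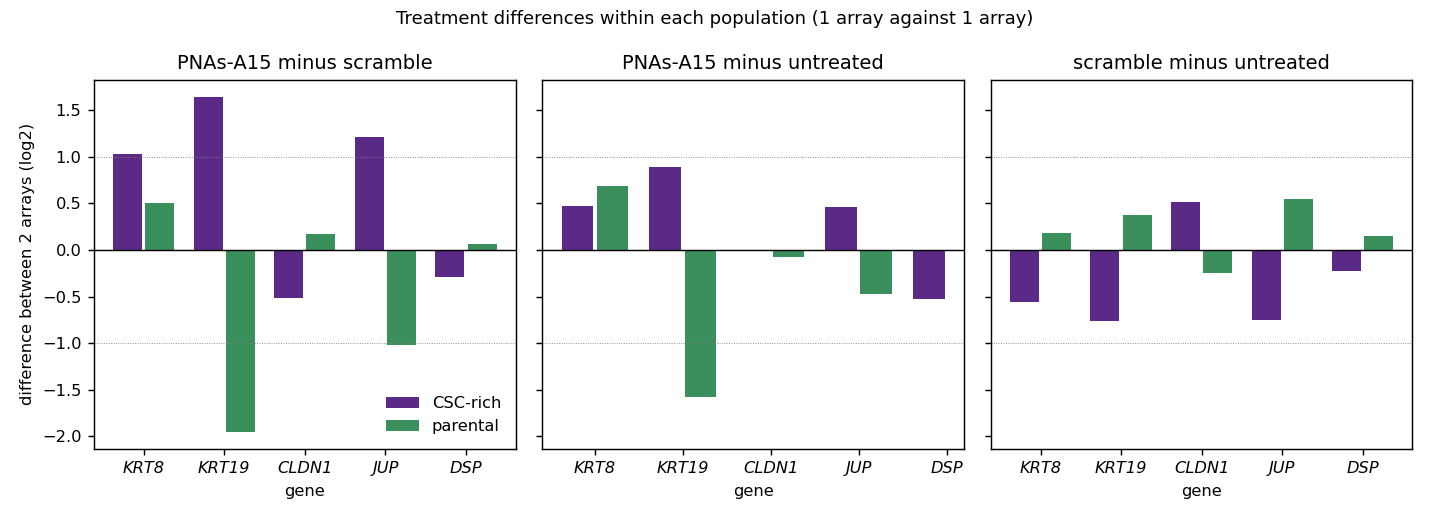
Log2 differences of the 5 measured genes between single arrays, for PNAs-A15 minus scramble, PNAs-A15 minus untreated and scramble minus untreated, in CSC-rich and in parental cells, without pairs in which both arrays were undetected. In the first panel KRT19 and JUP lie above 0 in CSC-rich cells and below 0 in parental cells.

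The genes around the members were described through 8 lists of other keratins, junction parts, epithelial surface proteins, regulators and partner filaments. They held 52 measured genes, of which 0 passed the adjusted threshold in CSC-rich against parental cells. At an unadjusted p under 0.05, 4 were higher and 8 lower, a share of 23.1% against 18.9% of all genes. KRT4, KRT15, CLDN8 and GRHL1 were detected in parental cells alone and entered only through the population where they were brighter, so the split by direction is not read as a result. Of the other keratins, 5 of 24 were measured. KRT80, a widely expressed type II chain, differed by -0.86 ± 0.35. KRT4, a type II chain of the oesophageal lining, and KRT15, a type I chain of basal cells, were undetected on the 3 CSC-rich arrays. KRT4 was also undetected on the parental PNAs-A15 array, at 5.57, so its bound is not a strict one. The log2 means of KRT4 were 5.05 in CSC-rich and 6.15 in parental cells, a bound of about 1.31-fold, with an adjusted p of 0.16 in limma. Those of KRT15 were 5.36 in CSC-rich and 5.96 in parental cells, a bound of at least 1.14-fold, with an adjusted p of 0.38 in limma and an interval of the fitted difference (-1.38 to 0.19) that holds 0.

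Among desmosome and plaque genes 9 of 14 were measured, with EVPL (envoplakin, a plakin) at -0.70 ± 0.59, PKP4 (a plakophilin relative) at -0.69 ± 0.41 and PERP (a desmosome membrane protein) at 0.45 ± 0.33. Of the adherens junction list 7 of 11 were measured, with NECTIN2 (an adhesion receptor) at -0.93 ± 0.40 and the catenins CTNND1 and CTNNA1 at -0.33 ± 0.33 and -0.31 ± 0.32. Of the tight junction list 12 of 27 were measured. TJP1 (ZO-1, a scaffold) was at 2.08 ± 0.73 with an adjusted p of 0.20 in limma. Its log2 levels were 12.23, 13.06 and 12.44 in CSC-rich cells given PNAs-A15, scramble or nothing, against 7.78, 11.76 and 11.96 in parental cells, the parental PNAs-A15 array being far below the rest. CLDN12 was higher in all 3 pairs, at 1.43 ± 0.34, with an adjusted p of 0.097 in limma, opposite in sign to CLDN1, and CLDN11 was at -1.37 ± 0.43.

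Of the epithelial surface list 7 of 13 genes were measured. MAL2, a transport protein of polarised epithelial cells, was at 2.11 ± 0.40 with an adjusted p of 0.053 in limma, and was detected on 3 CSC-rich arrays and 1 parental array. AP1M2, an adaptor subunit of epithelial cells, was at -1.61 ± 0.61, and the mucin MUC1 at 0.61 ± 0.34. Of the transcription and splicing regulators 4 of 14 were measured. FOXA2 was at -1.60 ± 0.34 with an adjusted p of 0.069, FOXA1 at 0.37 ± 0.33, and GRHL1, undetected on the 3 CSC-rich arrays, had log2 means of 5.46 in CSC-rich and 5.84 in parental cells. Its fitted difference of -0.38 ± 0.34 (95% interval -1.18 to 0.43) had an adjusted p of 0.59 in limma. GRHL1 was undetected on both arrays of the scramble pair and has no difference there.

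The repressor list had 3 of 6 genes measured: ZEB2 at 2.08 ± 0.51 with an adjusted p of 0.10, SNAI2 at -0.21 ± 0.76 and TCF3 at -0.36 ± 0.59. Levels of ZEB2 were 9.32, 9.86 and 9.10 in CSC-rich cells, against 5.89, 7.94 and 8.20 in parental cells, and its second measured probe gave a difference of 0.59. SNAI2 had levels of 7.18, 7.66 and 7.41 in CSC-rich cells, against 4.84, 8.92 and 9.10 in parental cells, the PNAs-A15 array again apart. Of the partner filaments 5 of 9 were measured, with nestin (NES) at -1.52 ± 0.33, lamin A (LMNA) at -1.05 ± 0.38 and plectin (PLEC), a linker of filaments to junctions, at -1.04 ± 0.61, with a second PLEC probe at 0.54. The genes named in these lists were those with the largest population difference, so their calls in other fits support nothing. Without either PNAs-A15 array KRT4, KRT80, CLDN12, MAL2, AP1M2, FOXA2, ZEB2, TCF3, SNAI2, NES and PLEC passed in limma, and without either untreated array TJP1, MAL2 and ZEB2. Over the fits that left out an array, TJP1 lay between 0.89 (without PNAs-A15) and 2.88 (without untreated), ZEB2 between 1.40 and 2.67, AP1M2 between -2.48 (without PNAs-A15) and -0.82 (without scramble), and PLEC between -1.73 and -0.12 for the same omissions as AP1M2.

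**Figure D5:**
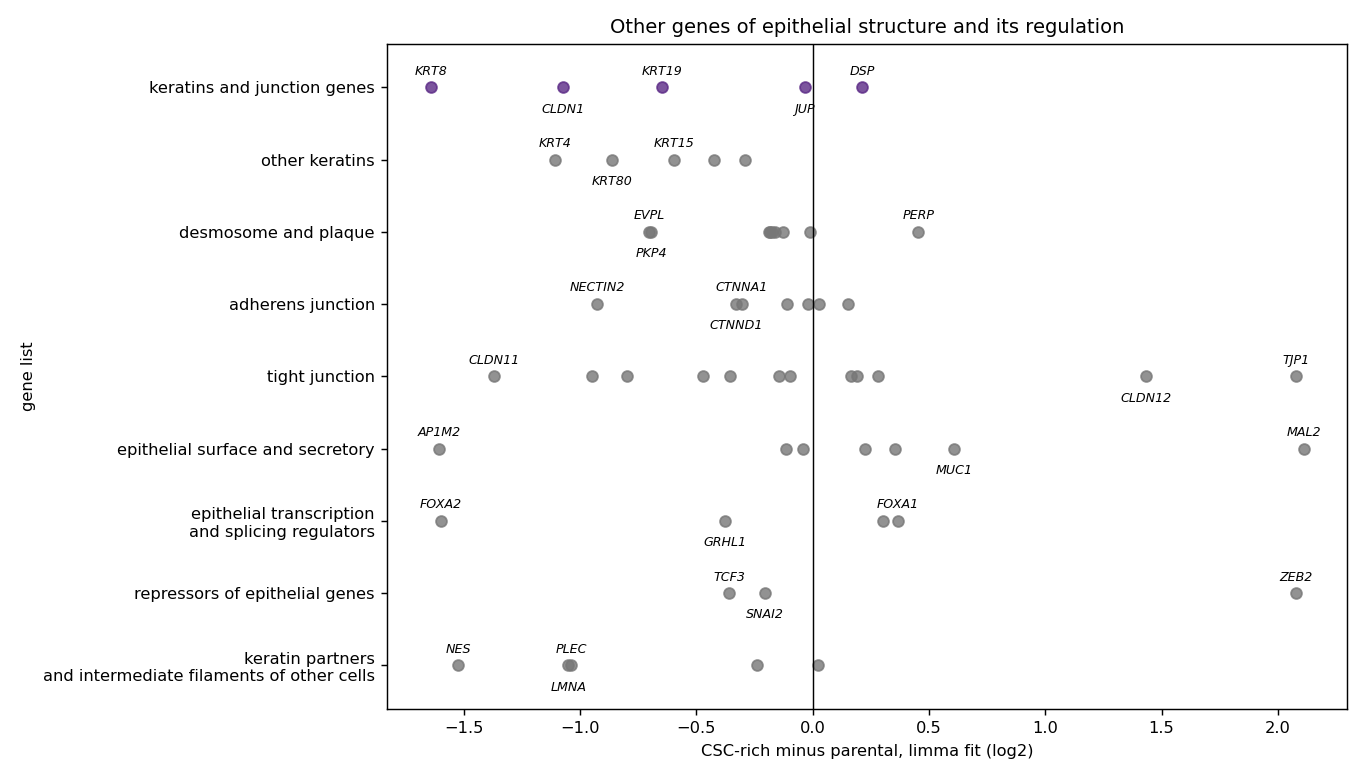
Fitted log2 difference, CSC-rich minus parental, of the 5 measured keratins and junction genes (top row) and of each measured gene in the 8 lists around them (grey). None of the 52 genes of the lists passed the adjusted threshold.

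Markers of other cell types were read beside these results. Of 6 immune markers 4 were measured, with PTPRC and CD3E not kept, and their summed linear level was 4271 to 6509 in CSC-rich cells and 2129 to 7503 in parental cells. Most of that sum was CD68, at log2 levels of 10.78 to 12.64. CD14, LYZ and CD79A reached at most 9.41, 7.99 and 7.53, so the sum is not read as a level of immune cells. Of 8 fibroblast and endothelial markers 3 were measured, COL1A1, COL1A2, PECAM1, CDH5 and VWF not being kept, with sums of 1563 to 3233 in CSC-rich cells and 789 to 6347 in parental cells. Within that list LUM, a matrix proteoglycan, was at 3.09 ± 0.64 (adjusted p 0.067, limma), with a second measured LUM probe at 0.78. The LUM level was 4.85 on the parental PNAs-A15 array, against 8.58 and 8.89 on the parental scramble and untreated arrays. The collagen COL3A1 was at -2.85 ± 0.70 (adjusted p 0.10, limma). On the probes that stood for them, LUM and COL3A1 differed by more than KRT8 and were opposite in sign to each other. Only AGER of 6 airway and alveolar markers was measured, with sums of 34.2 to 65.8 in CSC-rich cells and 33.7 to 65.2 in parental cells. AGER was detected on 1 CSC-rich and 1 parental array, at log2 levels of 5.08 to 6.04 over all arrays. These sums are thus 1 gene near the lowest level of a detected probe. Their part in the results above was not tested.

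The genes closest in pattern were found by the Pearson correlation of log2 levels over the 6 arrays, among 9207 genes detected on all of them, and are given as a description. The 6 arrays share their normalization and the split between populations. KRT8 was nearest to UROD, CAPG and PUSL1, at r of 0.9995, 0.9991 and 0.9978, and 297 genes exceeded 0.95. CLDN1 was nearest to MTHFD2, CEP128 and DEPDC1B, at 0.9947, 0.9945 and 0.993, with 151 genes above 0.95. KRT19 was nearest to ACIN1, TTF1 and GNA11, at 0.9972, 0.9905 and 0.9904, with 78 genes above 0.95. JUP was nearest to RRP12, MAFG and RETSAT, at 0.9936, 0.9927 and 0.9883, with 41 genes above 0.95. Without the parental PNAs-A15 array all 12 correlations stayed between 0.989 and 0.9998. The genes were picked as nearest on arrays that include these, so that range is no separate check. At the top of 9207 genes ranked over 6 arrays, values near 1 can arise without any link between the genes.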

How the data were processed

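Signals of 6 arrays, 1 per group, were analysed. As deposited, each of 47323 probes has a signal intensity on a linear scale and a p-value of detection for every array. The submitters' processing notes name GenomeStudio 2011.1; no other step is stated in the sources used here. The deposited series matrix held equal values in 100% of cells, so it is linear, not centred and not normalized.

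Probes were named through the platform annotation (30113 with 1 symbol, 8 with several and left unnamed, 17202 not listed), of which 30074 matched RefSeq of GRCh38.p14, which changed 0 symbols. Intensities were background-corrected with limma's neqc (3.58.1, R 4.3.3, offset 16, negative controls taken from the p-values of detection), quantile-normalized and turned into log2 values here, not by the authors. Probes detected (p under 0.05) on 2 or more arrays were kept, and the brightest stood for its gene, leaving 12101 genes. Where all arrays of a population missed a probe, its fold is a lower bound, the brighter mean against a floor per dim array (the lowest level of any detected probe, or the probe's own level if higher). The bound is not strict where an array of the brighter population also missed the probe.

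limma fitted population and treatment additively, with 2 residual degrees of freedom, and p-values were Benjamini-Hochberg adjusted over all genes with a threshold of 0.05. The spread in that fit holds array noise and any difference of treatment effects between populations together. Single arrays were compared by the number of genes differing 2-fold or more. The number of arrays limits the precision. All probes of the 10 genes were named, and of each surrounding list up to 3 measured genes with the largest population difference; the members and lists were chosen with earlier results of these data known. Alternatives changed the normalization, the filter, the probe rule and the arrays.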

Additional observations from a re-analysis of the deposited data

Results flagged for a closer look

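Several genes had treatment differences of opposite sign in CSC-rich and parental cells. Each rests on 1 array per group, and the difference between populations was not tested. The share of all genes with opposite signs is not given here, so these signs are not read as particular to these genes. Every comparison below uses the parental PNAs-A15 array, the CSC-rich scramble array or both, the ones with the lowest detection. The part of this in the gaps was not tested. The values below are the CSC-rich change minus the parental change on the log2 scale, after the CSC-rich and the parental change.

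For PNAs-A15 against scramble, KRT19 was at 1.65 in CSC-rich and -1.95 in parental cells, a gap of 3.60. JUP was at 1.21 in CSC-rich and -1.02 in parental cells, a gap of 2.23. The gaps were -0.35 for DSP and -0.69 for CLDN1, whose changes were below 2-fold in both populations. In the deposited signals the 2 populations had the same sign for DSP (-0.01 in CSC-rich and -0.26 in parental cells) and for CLDN1 (-0.32 and -0.46), so these opposite signs depend on the scaling.

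For PNAs-A15 against untreated cells, KRT19 was at 0.89 in CSC-rich and -1.58 in parental cells, a gap of 2.47. The gaps were 0.94 for JUP and -0.73 for DSP. DSP was undetected on both parental arrays of that comparison, and in the deposited signals both populations were below 0, at -0.26 in CSC-rich and -0.11 in parental cells.

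For scramble against untreated cells, no change reached 2-fold in either population. The gaps were -0.74 for KRT8, -1.13 for KRT19, -1.29 for JUP, -0.38 for DSP and 0.76 for CLDN1.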

How the results depend on the processing

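The number of genes called between CSC-rich and parental cells was 279. It was 567 after median scaling (267 higher and 300 lower, against 101 and 178), 21 in the deposited signals (2 and 19), 0 of 20046 with no filter on detection (2954 at an unadjusted p under 0.05, limma), and 111 (29 and 82) after median scaling over all probes, an alternative chosen after seeing the data. It was 638 with population alone and no replicate block, 2324 without both PNAs-A15 arrays, 87 without both scramble arrays and 419 without both untreated arrays. Leaving out 1 array gave 87 to 2324 genes, the same values as leaving out its treatment pair, because the treatment term absorbs the lone array. In the treatment comparisons, the fit without the CSC-rich PNAs-A15 array rests for that agent on the parental PNAs-A15 array alone. That array stood apart in its correlation with the others, so calls from this fit are not read as a result. In this fit the share of the 5 genes that passed was below the share of all 12101 genes. For PNAs-A15 against scramble, leaving out 1 array gave 0 to 3459 genes and for PNAs-A15 against untreated 0 to 3770, the highest without the CSC-rich PNAs-A15 array, where 1 of the 5 genes passed in each, while scramble against untreated stayed at 0.

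KRT8 kept its sign in every alternative (-1.80 to -1.43, adjusted p 0.0025 to 0.33, limma). It passed in some, among them the fit without PNAs-A15, median scaling at 0.026, quantile normalization alone at 0.042 and the stricter filter at 0.032. CLDN1 kept its sign too (-1.31 to -0.93) and passed in 0. Without both scramble arrays KRT19 was at 0.14, JUP at 0.55, TCF3 at 0.34 and SNAI2 at 0.32. SNAI2 was at 0.54 without both untreated arrays, and EVPL at 0.21 without both PNAs-A15 arrays. Over single arrays left out, the ranges were -1.66 to 0.14 for KRT19, -0.56 to 0.55 for JUP, -1.24 to 0.21 for EVPL, -1.21 to 0.34 for TCF3 and -1.47 to 0.54 for SNAI2. The causes were not tested.

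The 45 differences between single arrays gave 306 values under 7 alternatives. Of these values, 299 moved by under 1.5-fold and 0 of those at 2-fold or more changed sign. The changes of filter left every value they kept as it was, and the mean of kept probes changed JUP alone. Many of the 299 were therefore repeats of the main value and say nothing on stability. The 5 of 10 member differences at 2-fold or more between PNAs-A15 and scramble were 3 under quantile normalization without background correction. The 1 of 10 between PNAs-A15 and untreated was 2 under either median scaling and in the deposited signals. The 0 of 10 between scramble and untreated was 1 with the mean of kept probes. In parental cells, PNAs-A15 against scramble had 55.45% of the 2-fold genes higher, against 66.57% after median scaling and 6.741% in the deposited signals, and a median over all genes of 0.20, 0.45 and -0.43 in the same order. In the deposited signals the share of higher genes also moved for CSC-rich against parental cells with PNAs-A15 (82.21% against 48.02%), scramble (19.66% against 54.66%) and no treatment (42.27% against 53.15%). It moved for PNAs-A15 against scramble in CSC-rich cells (99.54% against 67.33%), for PNAs-A15 against untreated in CSC-rich (20% against 56.67%) and parental cells (10.21% against 54.48%), and for scramble against untreated in CSC-rich (0% against 20.18%) and parental cells (100% against 66.67%). DSP had no value under the stricter filter. The fit without the parental PNAs-A15 and the CSC-rich scramble arrays could not be made with the treatment term and was not run. The labels carry no replicate numbers; the fit itself sets the populations beside each other within each treatment, with treatment as the block.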
